A study of Mus musculus with 4 samples.

Results

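RNA decay genes were chosen by symbol, as the rows for subunits of the exosome, the Ccr4-Not deadenylase, the Lsm proteins and the decapping machinery, together with the Btg and Tob proteins, Pan2, Pan3, Parn, the exonucleases Xrn1 and Xrn2, the Upf and Smg factors, and Dis3, Skiv2l, Skiv2l2, Mphosph6 and Ddx6. In total 63 of the 23746 rows matched, and 61 of them passed the filter on low values (1 FPKM or more in 2 or more tumors), as did 12752 rows in all. FPKM is the number of fragments per kilobase of transcript, scaled to the total of mapped fragments, so levels of different genes can be set side by side. The members that did not pass were Btg4, listed at 0 in all 4 tumors, and Patl2, at most 0.016 FPKM.

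PolyA RNA was profiled from 4 primary mammary tumors of female mice. Tumors 26043 and 26044 were WapCre;Rank;Brca1;p53 (triple-mutant) and tumors 26048 and 26050 were WapCre;Brca1;p53 (double-mutant). All 4 mice carried the WapCreC transgene and floxed Brca1 and p53 alleles, and the triple-mutant mice carried floxed Rank alleles as well. The paper describes Cre activity of this transgene in luminal and basal mammary epithelium, so other cells of a tumor keep intact alleles, and the ages of these 4 mice were not given in the sources used here. The comparison asks which transcripts differ between established Brca1;p53 tumors with and without Rank.

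Most mRNAs are degraded after their poly(A) tail is shortened. The Ccr4-Not complex and Pan2-Pan3 remove the tail, after which the body is degraded either from its 3′ end by the exosome or, once a ring of Lsm proteins has engaged the shortened tail and Dcp2 has removed the cap, from its 5′ end by Xrn1. The Upf and Smg proteins send transcripts with a premature stop codon into the same pathways, and Btg and Tob proteins, known as antiproliferative factors, bring the deadenylase to its targets.

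No RNA decay gene passed the test. At an adjusted p under 0.05 (limma on log2(FPKM + 1), Benjamini-Hochberg over all genes tested), 0 of 61 members and 0% of all 12752 genes were called, and the smallest adjusted p of a member was 0.476. At an unadjusted p under 0.05, 2 members (Cnot6 and Cnot7) were lower in triple-mutant tumors, against 3.91% of all genes, and 0 members were higher, against 5.91%. For a single gene in 2 against 2 tumors the smallest p of an exact permutation test is 0.333, so the values of each tumor are described first. Both triple-mutant tumors were below both double-mutant tumors in 25 of 61 members (41.0%), and 22.9% of all genes had this order. The opposite order was found in 8 members (13.1%), against 21.3% of all genes. Centring each tumor on its median left 25 lower and 4 higher members, against 25.7% and 19.4% of all genes in that setting. The midpoints of the Cufflinks confidence intervals gave 21 and 12 members, against 19.5% and 23.02% of all genes. A difference of at least 0.5 log2 units without overlap was found in the lower direction in 13 members (21.3%) and 14.1% of all genes, and in the higher direction in 1 member, Lsm7, and 14.8% of all genes. The median log2 fold change (triple- minus double-mutant) was -0.14 over the 61 members and -0.02 over all genes tested. The study itself picked out an RNA degradation gene list on these same samples, so neither the choice of these genes nor the side on which most of them lie is independent evidence of a direction.

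**Figure D1:**
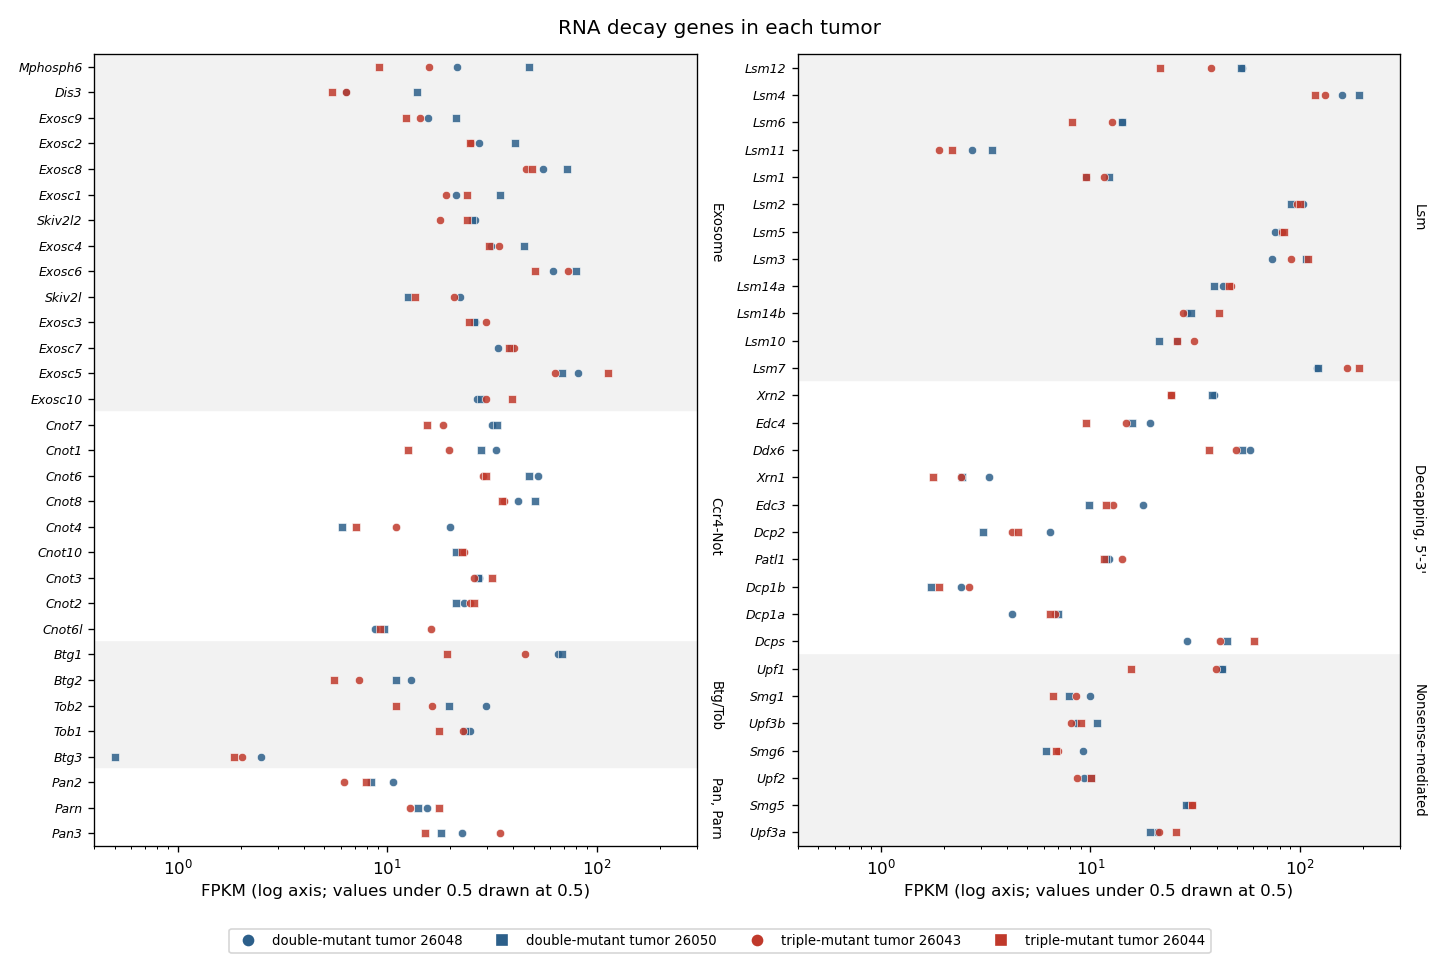
FPKM of 60 RNA decay genes in each of the 4 tumors, on a log axis, grouped by complex. Red points are triple-mutant and blue points double-mutant tumors, with a circle for the first and a square for the second tumor of a genotype. In 24 of the genes drawn both red points lie left of both blue points, and in 8 genes both lie to the right. Btg3 in tumor 26050 (0.0026 FPKM) is drawn at 0.5.

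The genotypes also differed in markers of cell type. Tnfrsf11a, which encodes Rank, was at 2.07 and 0.96 FPKM in tumors 26043 and 26044 and at 10.6 and 11.9 FPKM in tumors 26048 and 26050, lower in both tumors labelled as Rank mutants. Brca1 was at 3.26 to 5.69 FPKM and Trp53 at 15.7 to 150 FPKM, and gene-level values do not show whether a floxed exon is missing. The summed FPKM of 3 basal epithelial markers was 1236 and 204 in triple-mutant against 4.46 and 9.72 in double-mutant tumors, with all 3 markers higher without overlap. Of 4 luminal markers, 3 were lower without overlap and Krt19 was higher, and their sum was 398 in tumor 26044 against 1804 to 2703 in the others. Of 3 stromal markers, Col1a1 and Col3a1 were lower without overlap and Pdgfra was higher (2.90 and 19.1 against 1.63 and 1.44 FPKM), with sums of 128 and 65.7 against 622 and 284, and the sums of 4 immune markers were 34.2 and 32.4 against 55.1 and 67.7, with Cd3e below 1 FPKM in each tumor. The 4 proliferation markers summed to 246 and 271 against 297 and 391, but Ccnb1 and Top2a among them overlapped between genotypes. The 2 adipocyte markers reached 87.3 FPKM in tumor 26048 and at most 0.96 in the others, and the 2 endothelial markers 57.1 FPKM in tumor 26044 and 15.8 to 28.2 in the others. The part of these cell types in the values below was not tested, and in bulk tumors fewer cells of a type and less RNA per cell cannot be told apart. The number of genes at 1 FPKM or more ranged from 12150 to 12681 per tumor, and the sum of FPKM from 690775 to 796031.

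The spread between tumors of the same genotype was as follows. The median absolute log2 difference within the triple-mutant pair was 0.27 for members and 0.45 for all genes, and within the double-mutant pair 0.23 and 0.36. Tumor 26044 held the lowest value of 26 members (42.6%) and of 39.0% of all genes, while tumor 26048 held the highest value of 21 members (34.4%) and of 23.2% of all genes. After each gene was centred on its mean over the 4 tumors, the mean of the members was -0.02 and -0.18 log2 units in tumors 26043 and 26044 and 0.12 and 0.08 in tumors 26048 and 26050. The same means over all genes were 0.11 and -0.08 in the triple-mutant and 0.02 and -0.05 in the double-mutant tumors.

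**Figure D2:**
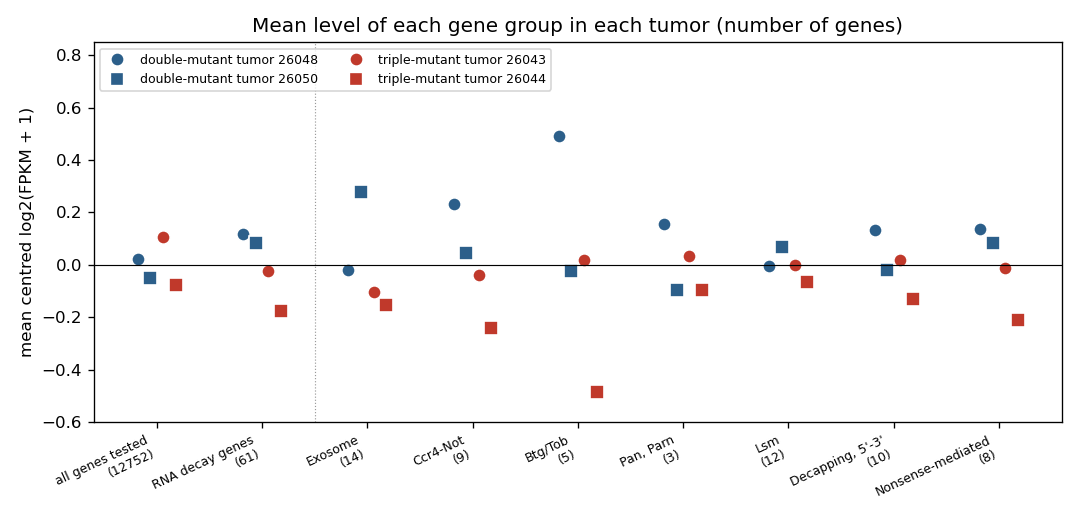
Mean of log2(FPKM + 1), centred per gene on its mean over the 4 tumors, for all genes tested, for the RNA decay genes and for each complex, with the number of genes in parentheses. Each point is 1 tumor. Double-mutant points lie above triple-mutant points for the RNA decay genes together, and within the exosome the square of tumor 26050 stands at 0.28 while the other 3 tumors lie between -0.15 and -0.02.

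The exosome is a ring of 6 subunits with a cap of 3, to which the nucleases Dis3 and Exosc10 bind, and it works with the RNA helicases Skiv2l in the cytoplasm and Skiv2l2 (also called Mtr4) in the nucleus. Of its 14 genes, 6 (42.9%) were lower in both triple-mutant tumors and 1 (7.14%) was higher, against 22.9% and 21.3% of all genes, with a median log2 fold change of -0.26. Mphosph6, a nuclear exosome cofactor that binds pre-ribosomal RNA, was at 15.8 and 9.19 FPKM in tumors 26043 and 26044 and at 21.6 and 47.5 FPKM in tumors 26048 and 26050. Its value in tumor 26050 stood far above the rest, and the genotypes did not overlap. The log2 fold change was -1.34 (SE 0.51, adjusted p = 0.511), and -0.79 without tumor 26050. Dis3, the processive 3′ to 5′ nuclease of the exosome, was at 6.35 and 5.44 FPKM in triple-mutant tumors and at 6.35 and 13.9 in double-mutant tumors, so that tumors 26043 and 26048 were level and the genotypes are barely apart. The log2 fold change of -0.61 (SE 0.45, adjusted p = 0.676) went to -0.10 without tumor 26050. Exosc9, a ring subunit, was at 14.4 and 12.2 against 15.6 and 21.2 FPKM, a log2 fold change of -0.43 (SE 0.31, adjusted p = 0.673) that went to -0.22 without the same tumor. From the interval midpoints the Exosc9 value was -0.23. Tumor 26050 held the highest value of 8 of the 14 exosome genes, and of 6 of the 9 genes Exosc1 to Exosc9, against 24.7% of all genes. The only member of the complex with both triple-mutant tumors higher was Exosc10, the nuclear nuclease, at 29.7 and 39.5 against 26.9 and 28.0 FPKM (log2 fold change 0.31, SE 0.29, adjusted p = 0.736). Among Exosc1 to Exosc9, the lowest levels were those of Exosc9 (12.2 to 21.2 FPKM over the 4 tumors). The highest means over the 4 tumors were those of Exosc5 (63.5 to 113 FPKM) and Exosc6 (50.8 to 80.1 FPKM), whose order changed between tumors. In tumor 26050 Exosc8 (72.1 FPKM) was above Exosc5 (68.8 FPKM). The FPKM of Exosc5 was 2.14 to 2.61 times the midpoint of its own confidence interval, and that of Exosc9 0.62 to 0.74 times. The ranks of both are therefore uncertain. Of Exosc1 to Exosc9, 3 of the 9 were lower without overlap, 0 higher, with a median of -0.21.

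The Ccr4-Not complex is built on the scaffold Cnot1 and holds deadenylases of 2 kinds, Cnot7 or its paralog Cnot8 and Cnot6 or its paralog Cnot6l. Of its 9 genes, 4 (44.4%) were lower in both triple-mutant tumors and 2 (22.2%) higher, against 22.9% and 21.3% of all genes, with a median log2 fold change of -0.30, and the lower ones were the scaffold and 3 of the 4 catalytic subunits. Cnot7 was at 18.6 and 15.6 FPKM in triple-mutant and 31.8 and 33.6 FPKM in double-mutant tumors. The gap between genotypes was several times the spread within either, and the log2 fold change was -0.90 (SE 0.28, adjusted p = 0.476), or -0.69 from the interval midpoints. Cnot6 was at 28.6 and 29.7 against 52.5 and 47.4 FPKM, again with little spread within a genotype. The log2 fold change of -0.76 (SE 0.26, adjusted p = 0.488) stayed between -0.83 and -0.68 with any 1 tumor left out, and was -0.56 from the interval midpoints. Cnot1 was at 19.8 and 12.6 against 32.9 and 28.1 FPKM (log2 fold change -0.90, SE 0.34, adjusted p = 0.509), and -0.59 without tumor 26044. Cnot8 differed less, at 36.3 and 35.2 against 42.3 and 50.7 FPKM (log2 fold change -0.36). Cnot6l was the exception among the catalytic subunits. Its values of 16.2 and 9.21 against 8.80 and 9.61 FPKM overlapped between genotypes, tumor 26043 stood alone, and the log2 fold change of 0.38 (SE 0.38, adjusted p = 0.752) went to 0.0019 without it. The structural subunits Cnot2, Cnot3 and Cnot10 differed by 0.19, 0.07 and 0.07 log2 units, and Cnot4, a ubiquitin ligase, ranged from 6.06 to 19.9 FPKM within the double-mutant pair. Further subunits stand under other symbols in the tables. Rqcd1, at the locus of Cnot9, was at 35.5 and 24.0 against 35.7 and 36.9 FPKM (log2 fold change -0.30, SE 0.31, and -0.03 without tumor 26044), and D1Bwg0212e, at the locus of Cnot11, at 11.0 and 15.6 against 14.8 and 16.5 FPKM.

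Among the proteins that recruit the deadenylase, 4 of 5 tested genes were lower in both triple-mutant tumors (22.9% of all genes were), and their median log2 fold change was -0.80. Btg1 was at 45.6 and 19.3 FPKM in triple-mutant and 65.1 and 68.4 FPKM in double-mutant tumors. The double-mutant tumors were close together and tumor 26044 was the lowest, so the log2 fold change of -1.14 (SE 0.47, adjusted p = 0.532) went to -0.54 without it. Btg2, a transcriptional target of p53, was at 7.38 and 5.55 against 13.0 and 11.0 FPKM (log2 fold change -0.81, SE 0.32, adjusted p = 0.520). Tob2 was at 16.4 and 11.1 against 29.7 and 19.8 FPKM (log2 fold change -0.80, SE 0.37, adjusted p = 0.552), and -0.52 without tumor 26048. Its paralog Tob1 differed by -0.24 log2 units (SE 0.29). Btg3 was low, at 2.04 and 1.86 FPKM in the triple-mutant tumors and at 2.49 and 0.0026 FPKM in the double-mutant tumors, and its genotypes overlapped. The lowest Btg1, Btg2, Tob1 and Tob2 values were in tumor 26044, which held the lowest value of 39.0% of all genes. Tumor 26044 also had the lowest luminal sum (398 FPKM). Tumor 26043 had the highest luminal sum (2703 FPKM), of which 1154 FPKM was Krt19. The other luminal markers were below both double-mutant tumors there. Btg1, Btg2, Tob1 and Tob2 in tumor 26043 were also below both double-mutant tumors. Whether cell type bears on these values was not tested. Of the other deadenylases, Pan2 was at 6.19 and 7.91 against 10.7 and 8.36 FPKM (log2 fold change -0.39, SE 0.33, adjusted p = 0.711), and -0.23 without tumor 26048 or without tumor 26043, while Pan3, its regulatory partner, and Parn, a poly(A)-specific ribonuclease, overlapped between genotypes.

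**Figure D3:**
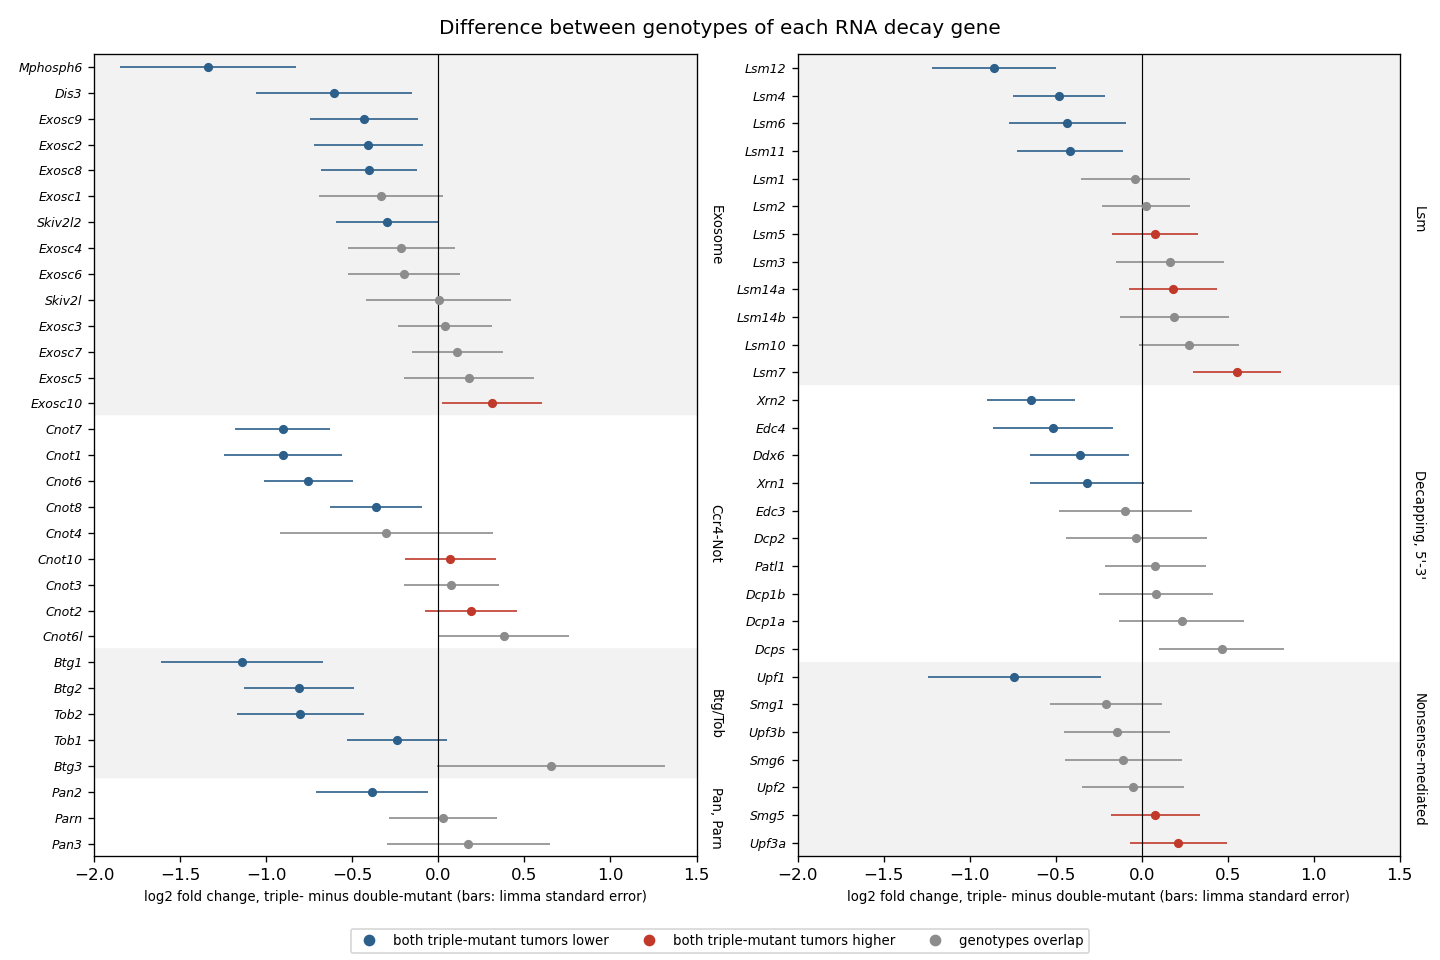
Log2 fold change (triple- minus double-mutant) of 60 RNA decay genes with the standard error from limma, grouped by complex. Blue marks genes lower in both triple-mutant tumors, red genes higher in both, grey genes whose genotypes overlap. The lowest values are those of Mphosph6 (-1.34) and Btg1 (-1.14), and Lsm7 (0.56) is the only red point beyond 0.5.

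The sequence just upstream of the start site is shown for 4 genes with lower values in triple-mutant tumors, 1 from each of the exosome and Ccr4-Not, with Btg1 and Btg2, so that the start regions of members that differ in the same direction can be read beside their values. Sequences are from RefSeq on GRCm38.p6, 250 bases that end at the base before the start, with capitals marking a TATA box (TATAAA) or a CCAAT box on either strand. Btg1 (chr10:96616751-96617000, plus strand) has TATAAA beginning 26 bases before the start and a CCAAT box on the other strand beginning at 80. Btg2 (chr1:134079156-134079405, minus strand) has CCAAT at 173 and 34 bases. Cnot6 (chr11:49712723-49712972, minus strand) has CCAAT at 61 bases. The Cnot6 window belongs to an inner start, because the RefSeq span of this gene reaches to 49713401. Mphosph6 (chr8:117801975-117802224, minus strand) has neither.
Btg1: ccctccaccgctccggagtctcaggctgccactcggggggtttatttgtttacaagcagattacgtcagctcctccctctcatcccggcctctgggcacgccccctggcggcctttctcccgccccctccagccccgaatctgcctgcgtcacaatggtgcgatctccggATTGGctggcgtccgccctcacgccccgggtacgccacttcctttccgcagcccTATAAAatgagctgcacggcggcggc
Btg2: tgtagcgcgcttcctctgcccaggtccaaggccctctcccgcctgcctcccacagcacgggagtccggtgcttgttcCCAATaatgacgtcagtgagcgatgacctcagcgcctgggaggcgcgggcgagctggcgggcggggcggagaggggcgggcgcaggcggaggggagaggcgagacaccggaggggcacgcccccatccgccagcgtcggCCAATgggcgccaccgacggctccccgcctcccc
Cnot6: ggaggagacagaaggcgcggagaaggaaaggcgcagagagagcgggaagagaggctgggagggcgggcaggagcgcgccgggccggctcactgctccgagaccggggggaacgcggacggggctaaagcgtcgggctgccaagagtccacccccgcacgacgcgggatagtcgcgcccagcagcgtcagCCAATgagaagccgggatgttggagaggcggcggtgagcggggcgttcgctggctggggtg
Mphosph6: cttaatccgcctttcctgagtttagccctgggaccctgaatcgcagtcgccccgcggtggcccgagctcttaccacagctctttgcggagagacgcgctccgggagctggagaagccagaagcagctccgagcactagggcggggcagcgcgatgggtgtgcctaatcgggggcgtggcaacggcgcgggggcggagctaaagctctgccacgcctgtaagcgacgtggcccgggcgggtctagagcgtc

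Promoter windows of 300 bases (250 before and 50 after the start) were given for 52 members, 62 windows in all, and each motif was searched on both strands. TATAAA was in 2 of the 62 windows (3.23%), those of Btg1 and Tob1, against 13.6% of 32851 windows of all genes. CCAAT was in 25 (40.3%, against 37.4%). The letters CCGGAAG, bound by Ets factors, were in 12 windows (19.4%, against 8.86%), ATGGCGGC, bound by YY1, in 5 (8.06%, against 2.24%), the E-box CACGTG in 3 (4.84%, against 7.15%), and the palindromic Nrf1 motif in 2 (3.23%, against 0.971%). No motif contains another, and a match is a description of the window, not of binding.

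Lsm proteins form rings. Lsm1 to Lsm7 bind the 3′ ends of deadenylated mRNA in the cytoplasm and activate decapping, whereas a ring with Lsm8 in place of Lsm1 binds U6 small nuclear RNA. Of the 12 Lsm genes, 4 were lower and 3 higher without overlap, against 22.9% and 21.3% of all genes, with a median log2 fold change of 0.05. Among the shared subunits Lsm2 to Lsm7, 2 were lower and 2 higher. Lsm7 was at 167 and 192 FPKM in triple-mutant and 121 and 122 FPKM in double-mutant tumors, the largest difference without overlap toward higher values among the members (log2 fold change 0.56, SE 0.26, adjusted p = 0.551). Lsm4 was at 131 and 119 against 159 and 191 FPKM (log2 fold change -0.48, SE 0.27, adjusted p = 0.599). The remaining shared subunits lay nearer to 0, except Lsm6 at -0.43 (8.19 to 14.1 FPKM over the 4 tumors). Lsm1, the subunit specific to the cytoplasmic ring, was at 11.6 and 9.49 against 9.49 and 12.2 FPKM and did not separate the genotypes. By level the subunits fell into 2 ranges, with Lsm2, Lsm3, Lsm4, Lsm5 and Lsm7 between 73.4 and 192 FPKM and Lsm1 and Lsm6 between 8.19 and 14.1 FPKM. Of the Lsm genes outside the rings, Lsm12 was at 37.7 and 21.5 against 53.1 and 52.1 FPKM (log2 fold change -0.86, SE 0.36, adjusted p = 0.533), and -0.47 without tumor 26044.

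Lsm8 stands in the tables as Naa38, at chr6:18848635-18854052, the exact limits of Lsm8 in RefSeq, and was therefore missed by the choice of symbols. It had a far larger difference than any member. Its level was 66.8 and 62.9 FPKM in triple-mutant and 730 and 494 FPKM in double-mutant tumors. The log2 fold change was -3.19 (SE 0.31, adjusted p = 0.143) and stayed between -3.47 and -2.91 with any 1 tumor left out. The 7 other tested genes within 2 Mb all lay on its lower-coordinate side, and 5 of them did not overlap between genotypes. Met, the receptor of hepatocyte growth factor, was at 13.2 and 0.66 against 726 and 386 FPKM, and Capza2, an actin capping subunit, at 76.7 and 44.5 against 1410 and 1295 FPKM. St7 and Cav2 were also lower without overlap, Cav1 was higher (log2 fold change 0.69), and Tes and Cttnbp2 overlapped. The part of the locus in the Lsm8 values was not tested. The row Lsmd1, at the locus that RefSeq now calls Naa38 (an acetyltransferase subunit), was at 87.3 and 83.7 FPKM in double-mutant tumors and higher in both triple-mutant tumors (log2 fold change 0.40, SE 0.27).

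**Figure D4:**
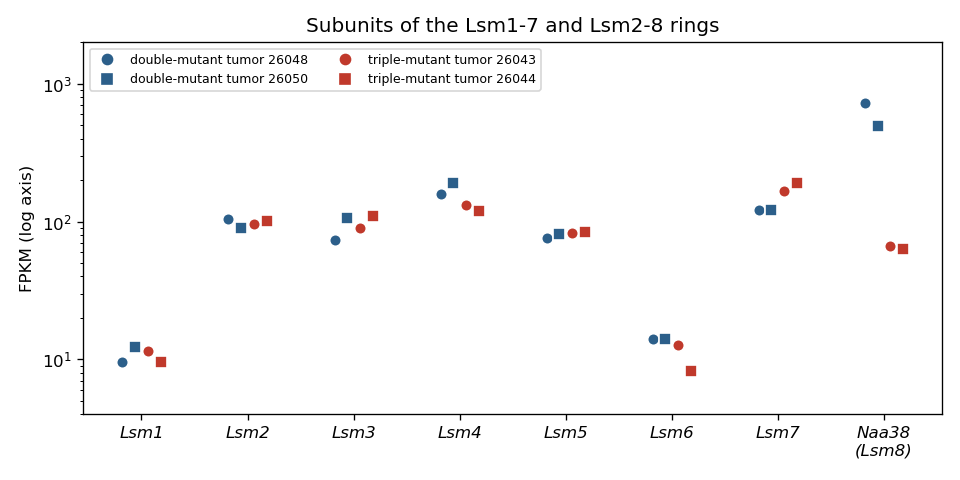
FPKM on a log axis of the subunits of the cytoplasmic (Lsm1 to Lsm7) and nuclear (Lsm2 to Lsm8) rings in the 4 tumors. Lsm8, listed as Naa38, is at 494 and 730 FPKM in the double-mutant tumors and at 62.9 and 66.8 in the triple-mutant tumors, and no other subunit separates the genotypes to that extent.

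Decapping and 5′ to 3′ decay comprised 10 tested genes, of which 4 (40.0%) were lower and 0 higher without overlap, against 22.9% and 21.3% of all genes, with a median log2 fold change of -0.06. Xrn2, the nuclear 5′ to 3′ exonuclease, had little spread within a genotype, at 24.1 and 24.1 FPKM in triple-mutant and 38.7 and 37.9 FPKM in double-mutant tumors. Its log2 fold change was -0.65 (SE 0.26, adjusted p = 0.520) and stayed between -0.66 and -0.63 with any 1 tumor left out. From the interval midpoints the Xrn2 value was -0.44. Xrn1, the cytoplasmic enzyme, was expressed far lower, at 2.41 and 1.77 against 3.28 and 2.43 FPKM (log2 fold change -0.32, SE 0.33, adjusted p = 0.759). Edc4, a scaffold of the decapping complex, was at 14.8 and 9.53 against 19.3 and 15.8 FPKM (log2 fold change -0.52, SE 0.35, adjusted p = 0.650), and -0.22 without tumor 26044. Ddx6, a helicase of P-bodies, was at 49.5 and 36.9 against 57.9 and 52.7 FPKM (log2 fold change -0.36, SE 0.29, adjusted p = 0.697), and -0.15 without the same tumor. The decapping enzyme itself, Dcp2, and its activators Dcp1a and Dcp1b overlapped between genotypes, with log2 fold changes of -0.03, 0.23 and 0.08. Dcps, which clears the cap left after 3′ decay, was at 41.6 and 60.1 against 29.0 and 44.7 FPKM and overlapped too.

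Nonsense-mediated decay was represented by 8 genes, 2 lower and 2 higher without overlap, against 22.9% and 21.3% of all genes, with a median log2 fold change of -0.13. Upf1, the central helicase, was at 39.9 and 15.5 against 42.5 and 42.3 FPKM. Only tumor 26044 stood apart here, and the log2 fold change of -0.74 (SE 0.50, adjusted p = 0.652) went to -0.09 without it. The higher ones differed little: Upf3a was at 21.2 and 25.6 against 20.7 and 19.2 FPKM (log2 fold change 0.21, SE 0.28, adjusted p = 0.813, and 0.08 without tumor 26044) and Smg5, which promotes dephosphorylation of Upf1, at 30.5 and 30.7 against 29.2 and 28.7 FPKM (log2 fold change 0.08, SE 0.26, adjusted p = 0.929). Their paralogs had the opposite sign. Upf3b was at 8.08 and 9.06 against 8.54 and 10.7 FPKM (log2 fold change -0.14, or 0.18 from the interval midpoints), and the endonuclease Smg6 at 7.03 and 6.84 against 9.25 and 6.13 FPKM (log2 fold change -0.11), both overlapping. Smg8, listed as 1200011M11Rik, was at 11.0 and 8.59 against 13.4 and 12.2 FPKM.

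Paralogs were compared because they can replace each other within a complex. Cnot6 and Cnot6l, with 71.9% identical coding bases, had log2 fold changes of -0.76 and 0.38 (0.0019 without tumor 26043), and Cnot7 and Cnot8 (70.1% identical) had -0.90 and -0.36. Btg1 and Btg2 (62.5%) had -1.14 and -0.81, and Tob1 and Tob2 (61.2%) -0.24 and -0.80. The difference between paralogs was not tested. None of these pairs shared a run of 50 bases, the read length, so no error-free read matches both. Shared runs with other genes were more common. Of 63 members, 27 had no 50-base run elsewhere in the annotated transcripts and 13 had more than 10% of their runs elsewhere, among them Exosc6 (100% within a transcript of Aars), Exosc9 (25.2%, mostly its neighbour Ccna2), Lsm7 (23.3%, mostly the pseudogene Gm10146), Lsm12 (12.3%) and Mphosph6 (10.1%, mostly Gm11448). Values of these genes are uncertain to that extent.

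Genome position was examined because several members lie on the same chromosome. Chromosome 8 held 10 members, of which 7 (Mphosph6, Cnot7, Cnot1, Upf1, Edc4, Lsm4 and Lsm6) were lower without overlap and 1, Upf3a, higher, with a median log2 fold change of -0.50. All 682 tested genes of this chromosome had a median of -0.36, and 42.2% of them were lower without overlap. Without chromosome 8, 18 of 51 members (35.3%) were lower without overlap, against 21.8% of the other 12070 genes, and the medians were -0.05 and -0.002. Of the same 51 members 7 were higher without overlap, where 21.3% of all 12752 tested genes, chromosome 8 included, were higher. Chromosome 1 was similar, with 41.2% of its genes lower, and its member Btg2 was among them. Around single members, the median of tested genes within 1 Mb had the same sign as the member in 17 of the 25 lower and 5 of the 8 higher members. The same count was not made for all genes, so nothing particular to the members can be read from it. Cnot1 had 22 tested neighbours, 11 of them lower without overlap, with a median of -0.63, and Mphosph6 had 9, 5 of them lower, with a median of -0.62. Lsm7 on chromosome 10 had 90 neighbours, 66 of them higher without overlap, with a median of 0.70. Cnot6 and Lsm12 on chromosome 11 differed from their surroundings, which had medians of 0.15 over 23 genes and 0.04 over 57. The part of chromosome position in these values was not tested.

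**Figure D5:**
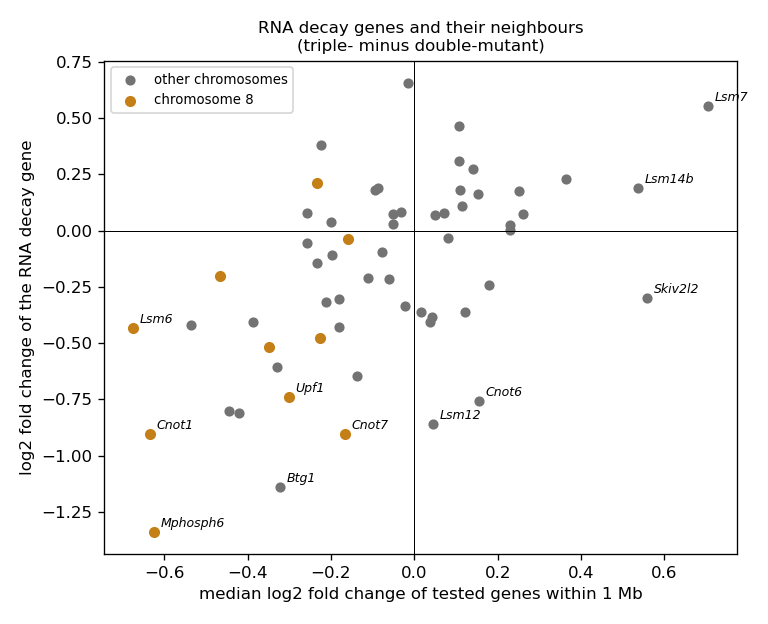
Log2 fold change of 60 RNA decay genes against the median log2 fold change of the tested genes within 1 Mb of it, with members on chromosome 8 in orange. All orange points but Upf3a lie at the lower left, Lsm7 lies at the upper right with neighbours at 0.70, and Cnot6 and Lsm12 are low beside neighbours near or above 0.

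Precision within a tumor was given by the Cufflinks interval, with a median half-width of 6.23% to 7.24% of its midpoint over the members of a tumor. The FPKM itself lay outside that interval for 30 to 34 of the 60 or 61 members at 1 FPKM or more per tumor. Over all 23746 rows, including those below 1 FPKM, the FPKM was outside for 5668 to 6827. It was over 1.2 times the midpoint in every tumor for 6 members and under 0.8 times for 7. Lsm4 in tumor 26043, for example, had an FPKM of 131 and an interval of 54.6 to 63.5, and Upf3b an FPKM of 8.08 and an interval of 18.9 to 21.9. The ratio could differ between genotypes: for Xrn2 it was 0.66 and 0.64 in triple-mutant and 0.76 and 0.75 in double-mutant tumors. With the midpoint in place of the FPKM the median log2 fold change of the members was -0.07 and that of all genes 0.03. Levels set side by side for different members carry this uncertainty.

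Other genes of RNA decay and its regulation, a list of 76 found in the tables, were compared in the same way, and 73 were tested. In this list 31 (42.5%) were lower and 4 (5.48%) higher without overlap, against 22.9% and 21.3% of all genes, with a median log2 fold change of -0.16 (all genes -0.02) and 0 genes past the test (smallest adjusted p 0.143, that of Naa38). Rbm7, which binds RNA for the nuclear exosome, was at 26.7 and 27.3 FPKM in triple-mutant and 27.3 and 438 FPKM in double-mutant tumors, so only tumor 26050 differed, and its log2 fold change of -1.99 went to -0.02 without it. Hspd1, the mitochondrial chaperonin, which KEGG places in RNA degradation, was at 215 and 201 against 389 and 611 FPKM (log2 fold change -1.23, SE 0.34, adjusted p = 0.452). Nbas, which takes part in nonsense-mediated decay, was at 3.82 and 2.24 against 6.81 and 5.65 FPKM (log2 fold change -0.87). Papd5, a noncanonical poly(A) polymerase that marks RNA for the nuclear exosome, was at 7.95 and 4.21 against 11.3 and 10.8 FPKM (log2 fold change -0.82, SE 0.39, adjusted p = 0.561), and -0.43 without tumor 26044. The 3 genes of the list that did not pass the filter were Eif2c3, Nanos2 and Samd4.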

How the data were processed

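PolyA RNA of 4 mammary tumors was sequenced by the authors as 50-bp single-end reads from dUTP libraries. Per the submitters' processing notes and the methods, reads were aligned with TopHat2 2.0.10 and Bowtie 0.12.9 to mm10, and the deposited FPKM of each gene, with the bounds of its confidence interval, come from Cufflinks 2.1.1. The annotation release is not given in the sources used here. Read counts made by the authors were not used here, and depth per tumor is unknown. Groups and tumor numbers were taken from the sample labels, with 1 tumor as 1 replicate. The paper calls the females of both genotypes littermates, but the sources used here do not say which tumors came from the same litter. The 4 tables (23746 rows, 23284 distinct symbols) were joined on symbol and position, and starts are given counted from 1.

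Genes at 1 FPKM or more in 2 or more tumors were fitted as log2(FPKM + 1) with limma 3.58.1 in R 4.3.3 (eBayes with a trend, triple- minus double-mutant, Benjamini-Hochberg, threshold 0.05). The pseudocount of 1 understates changes of low genes. A count test could not be used on FPKM. The script was tested on simulated data. Non-overlap means that both values of 1 genotype lie beyond both of the other. The members and gene lists were chosen with earlier results of these data known. Genes are named by rule: in each complex up to 3 non-overlapping members with the largest difference, the 5 smallest p, members below the filter, paralogs of opposite sign, the mutated genes, 5 of the other decay list, Naa38 and Rqcd1. A gene counted among the members and a marker are not reported here. Further members are named as background to their complex, after their values were seen. Older symbols were matched by position to RefSeq (63 of 63 members matched). Paralog identity was computed on coding sequence of GENCODE M21, not on protein as first planned. In 50 of 53 genes the bases after the RefSeq start were in a transcript of that gene. Alternatives were a pseudocount of 0.1, no filter or 5 FPKM, TPM, quantile normalization, median centring, no trend, status OK genes and each tumor left out, and, chosen after seeing the data, the interval midpoint. Python 3.11.15, pandas 2.3.3, numpy 2.4.6, biopython 1.88 and matplotlib 3.10.9 were used.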

Additional observations from a re-analysis of the deposited data

How the results depend on the processing

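No paired analysis was possible because the genotypes share no tumor numbers and which of the tumors came from littermates is not given in the sources used here. Over the 12 planned settings and the interval midpoint, 0 members passed the threshold. Among all genes 6 passed with quantile normalization, 5 without the trend and 1 with the interval midpoint, and 0 otherwise, whether or not a tumor was left out. Members lower without overlap numbered 21 to 26 with all 4 tumors, against 19.5% to 25.7% of all genes. Members higher without overlap numbered 4 as TPM, 4 after median centring and 5 after quantile normalization, in place of 8. The shares of all genes higher were 19.4%, 19.4% and 19.9% in these settings, in place of 21.3%. With 1 tumor left out, where non-overlap is easier to meet (31.9% to 45.1% of all genes lower and 30.8% to 40.2% higher), 32 to 33 members were lower and 13 to 17 higher. The median of the members was negative in each of these settings, from -0.18 as TPM to -0.07 with the interval midpoint. The median of all genes was -0.05 as TPM and 0.03 with the interval midpoint. That of the members was -0.17 without tumor 26043 and -0.09 without tumor 26044, where the median of all genes was -0.12 and 0.06. Of 364 values of 28 named genes under the alternatives, 361 kept their sign and 3 reversed: Smg6 (0.16 without tumor 26048, range from -0.37 with 1 tumor left out) and Upf3b (0.0034 without tumor 26050, range from -0.29, and 0.18 with the interval midpoint). The cause was not tested. With 2 tumors per genotype and unknown depth, a member that missed the threshold is not shown to have equal levels.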
